A study of Homo sapiens with 8 samples.

Results

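The departure of SP2509 and UNC0642 from additivity was measured in 14801 genes, those with an FPKM of at least 1 in any of the 4 inhibitor libraries, out of 31582 genes in the deposited inhibitor table. For each gene, the log2 changes of the 2 single inhibitors against vehicle were added, and this sum was subtracted from the log2 change with both inhibitors, all on log2(FPKM + 1). A departure of 0 therefore means that the folds of the single inhibitors multiply in the combination, and a departure of 1 means that the combination lay 2-fold above the product. Genes were admitted by their level alone, whereas most genes named below were chosen by the size of their departure. RNA-seq was performed on Kyse510 cells, an established ESCC line, in 8 libraries with 1 library per condition. The 4 used here were vehicle (titled DMSO-con, although its treatment label reads untreated), 7 µM SP2509, 7 µM UNC0642, and both inhibitors together (SP+UNC), each for 2 days. No separate dose is stated for the combination, and 7 µM of each inhibitor was assumed. The other 4 libraries come from lines with a doxycycline-inducible shRNA against LSD1 or G9a, and no library with both knockdowns was analysed here.

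SP2509 inhibits LSD1 (KDM1A), an amine oxidase that removes methyl groups from H3K4 and H3K9, and UNC0642 inhibits the substrate pocket of G9a (EHMT2), which adds methyl groups to H3K9. When drugs act on separate steps of transcription, their folds are often taken to multiply, and the log-additive sum is the usual reference for that. Relative to it, a combination can exceed the sum, fall short of it, or turn a gene in the opposite direction.

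The libraries held 15662035 to 17889466 reads, estimated from the steps of the deposited FPKM values. Of 10 squamous epithelial markers, 9 reached 1 FPKM in at least 1 library and 7 did so in all 4. Their levels summed to 1084 FPKM in the vehicle library, 4874 in the SP2509 library, 1455 in the UNC0642 library and 1079 in the combination library. PKP1 stayed below 1 FPKM, and KRT17 alone had 3716 FPKM with SP2509. The 2 blood markers that the table lists (PTPRC and CD68) were at or near 0, 5 fibroblast markers summed to 3.12 to 6.74 FPKM, mostly from COL1A1, and 3 endothelial markers summed to 3.56 to 12.4 FPKM, mostly from CDH5. Since each condition has 1 library, no difference has a replicate check and no p-value is given. The 95% counting intervals below cover the counting error of the reads only.

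Promoters of 4 genes are shown, chosen with their values known, because these genes belong to the patterns described below and hold a motif that was searched in all promoters. Each run covers 250 bases before to 50 bases after the RefSeq start site on GRCh38.p14, 5′ to 3′ on the gene's strand, and the capitals mark the motif. The motif is AP-1 (TGANTCA) in IL11 (chr19:55370414-55370713, minus strand) and CXCL8 (chr4:73740319-73740618, plus strand), CHR (TTTGAA) in HMMR (chr5:163460382-163460681, plus strand), and the C/EBP-ATF element (TGATGNAA, here on the opposite strand) in CHAC1 (chr15:40953221-40953520, plus strand).
IL11: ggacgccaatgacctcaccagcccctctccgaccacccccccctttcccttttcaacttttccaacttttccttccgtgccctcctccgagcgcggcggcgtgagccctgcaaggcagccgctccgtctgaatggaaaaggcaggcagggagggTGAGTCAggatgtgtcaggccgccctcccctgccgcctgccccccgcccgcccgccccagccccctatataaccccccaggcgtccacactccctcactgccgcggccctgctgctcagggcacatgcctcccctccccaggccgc
CXCL8: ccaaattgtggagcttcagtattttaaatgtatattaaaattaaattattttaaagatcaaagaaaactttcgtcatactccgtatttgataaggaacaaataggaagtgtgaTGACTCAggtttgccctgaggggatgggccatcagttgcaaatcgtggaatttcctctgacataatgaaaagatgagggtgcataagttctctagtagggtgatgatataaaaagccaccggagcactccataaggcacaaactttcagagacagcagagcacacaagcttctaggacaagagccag
HMMR: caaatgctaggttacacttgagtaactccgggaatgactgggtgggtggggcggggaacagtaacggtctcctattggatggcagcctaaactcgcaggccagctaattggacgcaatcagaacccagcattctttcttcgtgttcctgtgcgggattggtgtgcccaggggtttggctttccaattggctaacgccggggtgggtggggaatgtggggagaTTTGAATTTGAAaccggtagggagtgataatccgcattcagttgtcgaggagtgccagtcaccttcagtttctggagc
CHAC1: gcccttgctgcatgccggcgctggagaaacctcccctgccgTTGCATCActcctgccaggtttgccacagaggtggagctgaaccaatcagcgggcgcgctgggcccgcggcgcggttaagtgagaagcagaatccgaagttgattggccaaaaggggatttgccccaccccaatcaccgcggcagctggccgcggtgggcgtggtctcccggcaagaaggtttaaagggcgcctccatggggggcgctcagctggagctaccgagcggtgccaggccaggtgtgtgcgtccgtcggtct

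The AP-1 match starts 96 bases before the start site in IL11 and 137 bases before it in CXCL8, the C/EBP-ATF match 209 bases before it in CHAC1, and the CHR matches 28 and 22 bases before it in HMMR, where they sit side by side without overlap. Promoters were found for 9276 of 11282 protein-coding genes measured (82.2%), with 13476 windows in all, since a gene can have several. Over all windows, 5.45% held AP-1, 2.04% the C/EBP-ATF element and 10.7% CHR on either strand.

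In 10882 genes (73.5%), the combination stayed within 2-fold of the sum of the single inhibitors. The other 3919 genes (26.5%) departed by 2-fold or more, 2497 upward (16.9% of all measured) and 1422 downward (9.61%). For 3497 of these, the counting interval did not hold 0. The median departure was 0.19, and 90% of genes lay between -1.41 and 1.64. This median moves with the scaling of the libraries. SP2509 alone had a median change of -0.17, against 0 for UNC0642 and -0.01 for both, and a trimmed-mean scaling of the libraries lowered the departure of a well-expressed gene by 0.16, its median to 0.07, and the share of departing genes that lay upward from 63.7% to 55.1%. The threshold cuts through a continuous distribution, with 671 genes between 0.9 and 1.0 in size and 680 between 1.0 and 1.1.

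**Figure D1:**
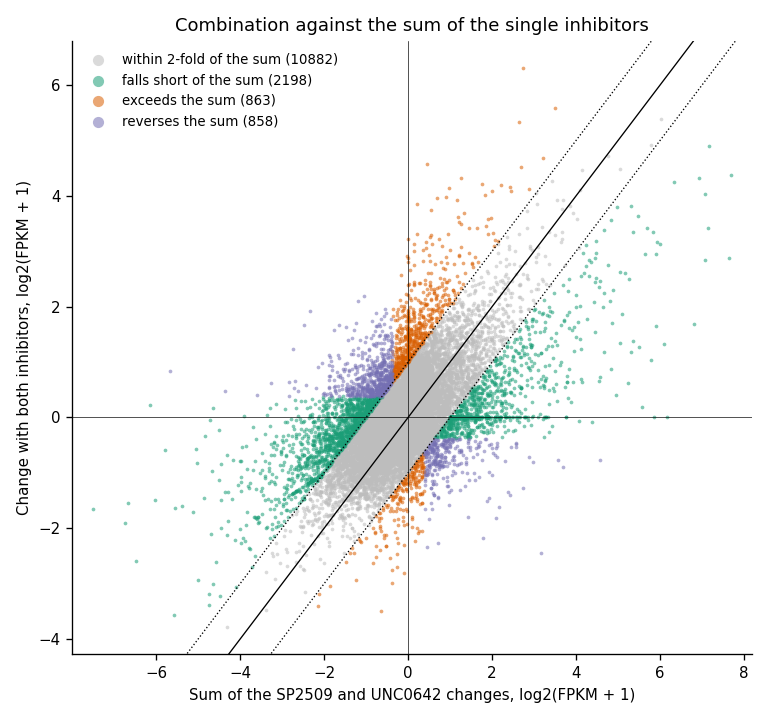
Each point is 1 of 14801 genes, with the sum of the SP2509 and UNC0642 changes against vehicle on the x axis and the change with both on the y axis, both as log2(FPKM + 1). The solid line marks equality and the dotted lines 2-fold; 2198 genes fell short of the sum, 863 exceeded it and 858 reversed it.

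Falling short was the most frequent kind of departure. In 2198 genes (14.9%), the combination moved less than the sum. In 863 genes (5.83%), it exceeded the sum, meaning that the combination's change was the larger in size. In 858 genes (5.8%), it reversed the sum, meaning that the sum and the combination each changed by at least 1.3-fold, in opposite directions. Of the genes that fell short, 1270 had a sum below vehicle and 928 a sum above it. The combination lay within 1.3-fold of vehicle in 721 and 587 of these, respectively, and in 684 and 439, where the single changes had the same sign, its change was smaller in size than either of them, in whichever direction. For 386 of the 1270 genes, the sum pointed below 0 FPKM, a level that no library can reach, so part of their departure follows from that floor. The same holds for 56 of the 577 genes in which the combination reversed a fall.

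Genes that both inhibitors moved the same way were those most often short of the sum, which follows in part from the definition. A gene can fall short by 2-fold only where its sum is large enough, and changes of the same sign add up. Of 1609 genes lowered at least 1.3-fold by each inhibitor, 810 departed upward and 8 downward, and of 1259 genes raised by each, 551 departed downward and 37 upward. Of 4676 genes that neither inhibitor moved by 1.3-fold, 391 departed upward and 146 downward. The vehicle library enters the sum 2 times and the combination's change 1 time, so an error in a gene's vehicle value moves its departure by the same amount. The direct ratios between treated libraries given below do not use vehicle.

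**Figure D2:**
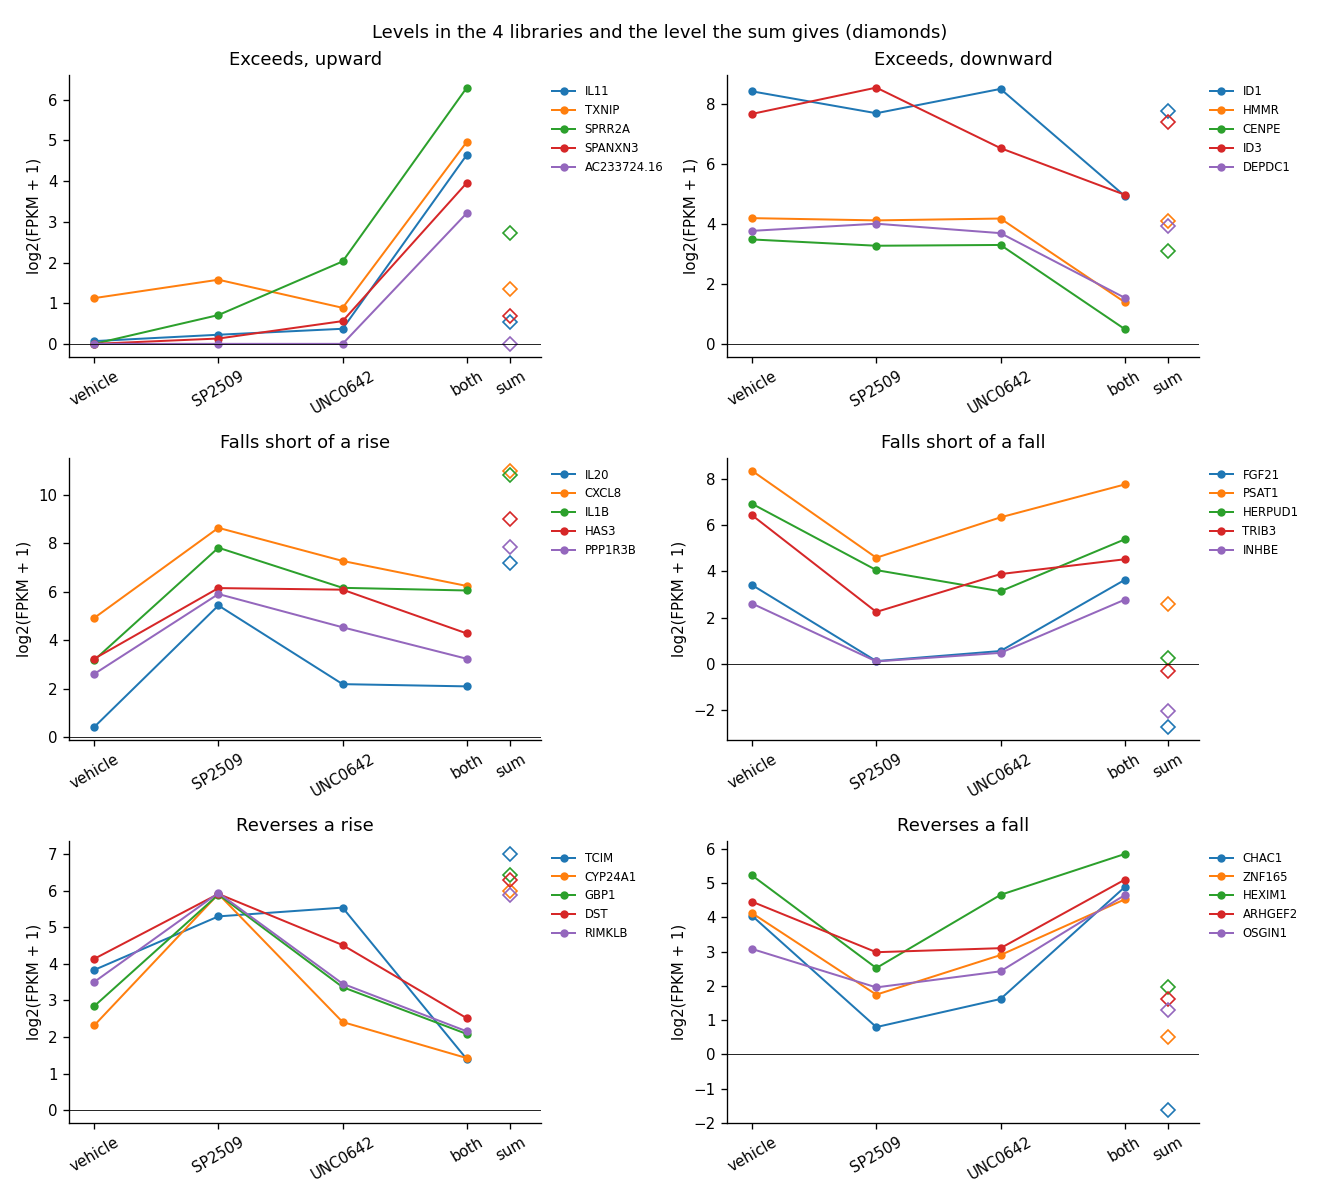
Lines show log2(FPKM + 1) of 5 genes per kind of departure in the vehicle, SP2509, UNC0642 and combination libraries, and open diamonds show the level that the sum of the single changes gives. With both inhibitors, FGF21 sat at 11.4 FPKM against 9.64 with vehicle while its diamond lies below 0, and IL11 sat far above its diamond, at 24.1 FPKM.

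Over the endoplasmic reticulum (ER) stress genes, the median level with the combination was closer to vehicle than that with either inhibitor. ER stress is sensed by PERK (EIF2AK3), IRE1 (ERN1) and ATF6, which raise ER chaperones, ER-associated degradation (ERAD) and, through ATF4 and CHOP (DDIT3), genes of amino acid supply. Of 19 UPR sensors and ER chaperones, 13 departed upward and 0 downward, where 16.9% and 9.61% of all genes did, and all 13 fell short of a fall. Their median change was -1.44 with SP2509, -1.22 with UNC0642 and -0.48 with both, and their median departure was 2.26 against 0.19 for all genes. Compared directly, the combination library stood above the SP2509 library by a median of 0.95 and above the UNC0642 library by 0.43.

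HSPA5, the main ER chaperone (BiP), had 1462 FPKM in vehicle, 511 in SP2509, 251 in UNC0642 and 627 in the combination, a departure of 2.83 (95% counting interval 2.8 to 2.86). DNAJB9, its cochaperone, had 23.6, 5.31, 3.23 and 19.96 FPKM in the vehicle, SP2509, UNC0642 and combination libraries, a departure of 4.27 (95% counting interval 4.02 to 4.52). Both genes were lower with either inhibitor than with the combination, and DNAJB9 came back almost to vehicle whereas HSPA5 did not. The largest departure after DNAJB9 was that of SDF2L1, a BiP partner, with 75.9 FPKM in vehicle, 4.65 in SP2509, 10.7 in UNC0642 and 11.7 in the combination. The sum for SDF2L1 pointed below 0 FPKM. ERO1B, an ER oxidase, and DNAJC3, another BiP cochaperone, departed by 3.12 and 2.93. The sensors differed from one another. EIF2AK3 had 8.21, 3.37, 3.04 and 7.697 FPKM in the vehicle, SP2509, UNC0642 and combination libraries, a departure of 2.18. ERN1 had 4.84 FPKM in vehicle, 1.53 in SP2509, 1.78 in UNC0642 and 4.88 in the combination, a departure of 2.29, and its target XBP1 had 77.2, 38.5, 24.3 and 39.7 FPKM in the vehicle, SP2509, UNC0642 and combination libraries, a departure of 1.67. ATF6, by contrast, stayed close to the sum at 0.21, with 18.6 FPKM in vehicle, 12 in SP2509, 12.6 in UNC0642 and 9.42 in the combination, so it alone of the 3 sensors was lowest with both inhibitors.

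Most targets of ATF4 and CHOP departed upward. Of 28 measured, 23 departed upward and 1 downward, 19 of them short of a fall and 4 reversing one, and the median departure was 2.03. Over all genes, 16.9% departed upward and 9.61% downward. CHAC1 (ENSG00000128965, chromosome 15, 40952962 to 40956519), which degrades glutathione, had 15.5, 0.737, 2.06 and 28.4 FPKM in the vehicle, SP2509, UNC0642 and combination libraries. Its departure was 6.51 (95% counting interval 6.16 to 6.86), from 498, 27, 76 and 987 reads. At a pseudocount of 1 this was the largest of all 14801 genes, whereas at 0.1 it was 7.94, below 10.05 for FGF21 and 8.50 for INHBE. CHAC1 was thus lowered more than 2-fold by each inhibitor and was highest with both. FGF21 (ENSG00000105550, chromosome 19, 48755559 to 48758330), a hormone secreted under stress, had 9.64 FPKM in vehicle, 0.0856 in SP2509, 0.469 in UNC0642 and 11.4 in the combination, a departure of 6.37 (95% counting interval 5.97 to 6.78), from 198, 2, 11 and 253 reads. It was nearly lost with either inhibitor and at the vehicle level with both. INHBE, an activin subunit that shares this pattern, had 5.104, 0.0745, 0.389 and 5.86 FPKM in the vehicle, SP2509, UNC0642 and combination libraries, a departure of 4.81. The sums of CHAC1, FGF21 and INHBE all pointed below 0 FPKM, so part of their departures follows from that floor.

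PSAT1, of serine synthesis, had 327 FPKM in vehicle, 23.1 in SP2509, 80.1 in UNC0642 and 217 in the combination, a departure of 5.19 (95% counting interval 5.08 to 5.3). TRIB3, a pseudokinase that restrains this response, had 85.4, 3.75, 13.8 and 22.05 FPKM in the vehicle, SP2509, UNC0642 and combination libraries, a departure of 4.83 (95% counting interval 4.63 to 5.02), and was lower than vehicle in all 3 treated libraries. Its sum also pointed below 0 FPKM. DDIT3 departed by 3.79, with 70.6 FPKM in vehicle, 17.3 in SP2509, 5.696 in UNC0642 and 22.6 in the combination. ATF4 itself was lowered less than these targets by the single inhibitors, with 255, 209.9, 186 and 360.1 FPKM in the vehicle, SP2509, UNC0642 and combination libraries, and reversed the sum by 1.23 (95% counting interval 1.17 to 1.28). Of the windows of these 28 genes, 7 of 33 held the C/EBP-ATF element (21.2%, against 2.04% of all windows), among them that of CHAC1 shown above. Among all protein-coding genes that fell short of a fall, 37 of 931 windows held it (3.97%). Among those that reversed a fall, as CHAC1 did, 11 of 490 windows held it (2.24%), near the share of all windows.

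Upward departures were also frequent in ERAD genes and aminoacyl-tRNA synthetases. Of 16 ERAD genes, 11 departed upward and 0 downward (16.9% and 9.61% of all genes), with a median departure of 1.28. HERPUD1, an ERAD scaffold, had 121 FPKM in vehicle, 15.7 in SP2509, 7.82 in UNC0642 and 40.9 in the combination, a departure of 5.12 (95% counting interval 4.99 to 5.25). SYVN1, the ERAD ubiquitin ligase, and its partner SEL1L departed by 2.57 and 2.04. VCP, the ATPase that extracts ERAD substrates, was lowered by SP2509 only, with 65, 16.6, 68.2 and 85.7 FPKM in the vehicle, SP2509, UNC0642 and combination libraries, and reversed the sum by 2.23. Of 20 synthetases, which charge tRNAs with amino acids, 10 departed upward and 0 downward, all 10 short of a fall, with a median of 1.0. Set against the larger single change, 5 departed upward and 0 downward, with a median of 0.38. With trimmed-mean scaling, 8 departed upward and 1 downward, with a median of 0.84. WARS had 47.5 FPKM in vehicle, 9.78 in SP2509, 15.9 in UNC0642 and 42.1 in the combination, a departure of 3.52. AARS, GARS and MARS departed by 3.2, 2.77 and 2.54, and each was lowest with SP2509.

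**Figure D3:**
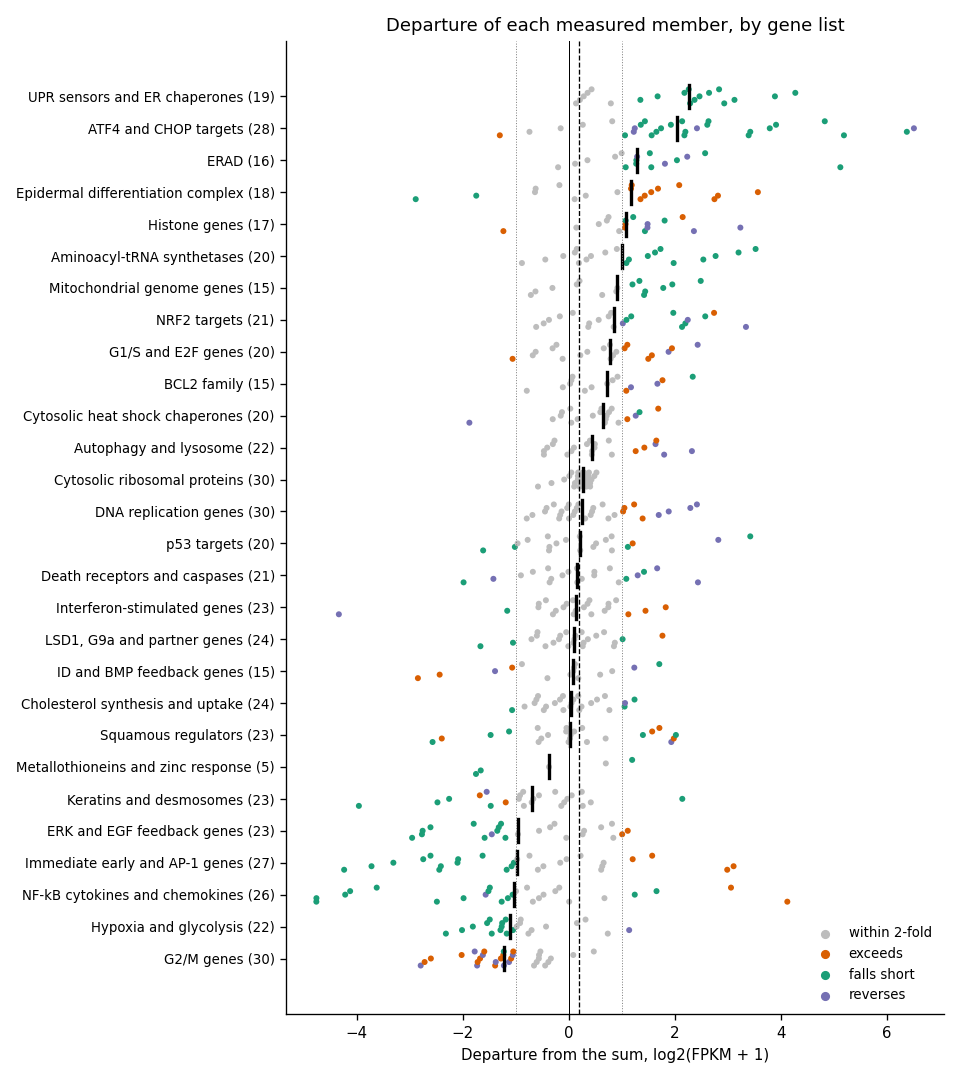
Each point is a measured member of 1 of 28 gene lists, placed by its departure from the sum on log2(FPKM + 1) and coloured by kind, with the list's median as a black bar and the number measured in brackets. The dashed line is the median of all genes at 0.19; list medians run from -1.22 for G2/M genes to 2.26 for UPR sensors and ER chaperones.

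In the lists of inflammatory, immediate early and ERK feedback genes, more members departed downward than upward. Of 26 NF-kB cytokines and chemokines, 13 departed downward and 4 upward (9.61% and 16.9% of all genes). Their median was -1.03 (0.19 for all genes). SP2509 raised 19 of the 26 at least 1.3-fold, UNC0642 14 and both inhibitors 16, and 4, 4 and 6 were lowered. No share over all genes is set beside such list counts at 1.3-fold, here and below. The median was -0.25 with 9 downward when the sum was taken on the linear scale, and -0.36 with 8 downward when the combination was set against the larger single change. CXCL8, the neutrophil chemokine IL-8, had 29.1, 397, 153 and 74.4 FPKM in the vehicle, SP2509, UNC0642 and combination libraries, a departure of -4.76 (95% counting interval -4.87 to -4.65). IL1B, an inflammatory cytokine, had 8.002 FPKM in vehicle, 224 in SP2509, 70.5 in UNC0642 and 65.2 in the combination, a departure of -4.76 (95% counting interval -4.9 to -4.61). For both genes SP2509 gave the highest level, and the combination stayed below UNC0642 alone. TNFAIP3 and IL1A, an NF-kB inhibitor and an epithelial alarmin, departed by -4.21 and -4.12. IL20, a cytokine of the IL-10 family that acts on keratinocytes, had 0.326, 42.2, 3.53 and 3.25 FPKM in the vehicle, SP2509, UNC0642 and combination libraries, and its departure of -5.12 (95% counting interval -5.53 to -4.7) was the largest among protein-coding genes that fell short of a rise and reached 5 FPKM in any library. HAS3, a hyaluronan synthase, had 8.38 FPKM in vehicle, 69.96 in SP2509, 66.8 in UNC0642 and 18.3 in the combination, and PPP1R3B, a glycogen-targeting phosphatase subunit, had 5.06, 58.8, 22.1 and 8.37 FPKM in the vehicle, SP2509, UNC0642 and combination libraries, with departures of -4.73 and -4.6. AP-1 was found in 5 of 31 windows of the cytokine list (16.1%, against 5.45% of all).

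Of 27 immediate early and AP-1 genes, 13 departed downward and 4 upward (9.61% and 16.9% of all genes). All 27 were at least 1.3-fold above vehicle with both inhibitors, and 23 were so with SP2509 and 19 with UNC0642. CTGF, a secreted matrix protein, had 5.896 FPKM in vehicle, 277 in SP2509, 22.1 in UNC0642 and 48.6 in the combination, and CYR61, a related one, had 8.89, 439, 30.5 and 105 FPKM in the vehicle, SP2509, UNC0642 and combination libraries. Their departures were -4.23 and -3.72, and SP2509 alone gave the highest level of each. FOSL1, an AP-1 subunit, had 6.19 FPKM in vehicle, 132 in SP2509, 78.9 in UNC0642 and 148 in the combination, a departure of -3.31, so the combination was slightly above either inhibitor. ARC, a neuronal immediate early gene, went the other way at 3.11 (95% counting interval 2.91 to 3.3), with 0, 0.0563, 0.0934 and 8.95 FPKM in the vehicle, SP2509, UNC0642 and combination libraries. It was 1 of 2 members of its list that reached 1 FPKM in the combination library alone, and such a gene had to be high there. The filter thus favours the rise of these 2 with both inhibitors, which is counted among the 27. With at least 1 FPKM in all 4 libraries, 12 of 22 members departed downward and 2 upward. Of 23 ERK and EGF feedback genes, 11 departed downward and 2 upward, with a median of -0.96. The dual-specificity phosphatase DUSP6, which inactivates ERK, was level across the treated libraries, with 1.47 FPKM in vehicle, 18.3 in SP2509, 17.96 in UNC0642 and 18.1 in the combination, a departure of -2.95 (95% counting interval -3.16 to -2.75). DUSP1 had 4.52, 115, 31.1 and 109.8 FPKM in the vehicle, SP2509, UNC0642 and combination libraries, and DUSP4, DUSP5 and DUSP1 departed by -2.77, -2.75 and -2.61.

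The 22 hypoxia and glycolysis genes were similarly high in the 3 treated libraries, with a median change of 1.2 with SP2509, 1.17 with UNC0642 and 1.51 with both. Of these, 12 departed downward and 1 upward (9.61% and 16.9% of all genes), with a median departure of -1.11. NDRG1 had 45.4 FPKM in vehicle, 197 in SP2509, 178 in UNC0642 and 153 in the combination, a departure of -2.32, and CA9, a carbonic anhydrase, had 12.1, 68.2, 66.2 and 87.2 FPKM in the vehicle, SP2509, UNC0642 and combination libraries, a departure of -2.01. SLC2A1, a glucose transporter, and HK2, a hexokinase, departed by -1.81 and -1.54. When the combination was instead set against the larger of the single changes, the medians of the hypoxia, immediate early and ERK lists were 0.03, 0.05 and -0.07, and 1, 5 and 3 of their members departed downward. That of the UPR list was 1.04, with 10 upward. With the sum on the linear scale, 2, 6 and 5 members of the first 3 lists departed downward, with medians of -0.50, -0.46 and -0.29. These downward counts thus depend on the log-additive reference.

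In 650 genes the combination exceeded the sum upward, and in 344 of these neither inhibitor alone reached 1.3-fold. IL11 (ENSG00000095752, chromosome 19, 55364389 to 55370463), a cytokine of the IL-6 family, had 0.0478 FPKM in vehicle, 0.168 in SP2509, 0.293 in UNC0642 and 24.1 in the combination, a departure of 4.12 (95% counting interval 3.86 to 4.38). These values rested on 2, 8, 14 and 1085 reads, so the gene was near absent in 3 libraries and well covered in the fourth. TXNIP, a thioredoxin-binding protein that lowers glucose uptake, had 1.18, 1.98, 0.848 and 30.3 FPKM in the vehicle, SP2509, UNC0642 and combination libraries, a departure of 3.63 (95% counting interval 3.32 to 3.94). It was below 2 FPKM in all libraries but the combination. SPANXN3, a cancer-testis gene, and AC233724.16, which the table lists as protein-coding without a common name, were at 0 reads with vehicle and had 14.6 and 8.29 FPKM with both. Of all genes measured, 880 reached 1 FPKM in the combination library alone. Such a gene had to be below 1 FPKM with vehicle and with each inhibitor alone. Its single changes on log2(FPKM + 1) are thereby held small, so the filter favours the count of 344. The filter also fixes part of the low vehicle level of the genes that exceeded upward. These genes were short and low, with a median vehicle level of 0.552 FPKM and a median span of 8.75 kb against 21.5 kb over all genes measured.

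Genes of the epidermal differentiation complex, which encode cornified envelope proteins, were among them. Of 35 listed, 18 reached 1 FPKM in any library, 8 of them in the combination library alone, and only 2 did so in all 4. A gene that passed through the combination alone had to be high there, so no count or median over these genes is given. SPRR2A had 0 FPKM in vehicle, 0.634 in SP2509, 3.07 in UNC0642 and 77.8 in the combination, a departure of 3.57 (95% counting interval 3.01 to 4.12), from 0, 8, 39 and 931 reads. With a pseudocount of 0.01 in place of 1 its departure was -1.35, since the vehicle value is 0. SPRR2D and PRR9 were also at 0 with vehicle and had 8.01 and 6.03 FPKM with both. IVL, encoding involucrin, fell short instead, with 0.297, 8.45, 10.4 and 10.3 FPKM in the vehicle, SP2509, UNC0642 and combination libraries, a departure of -2.88. SPRR and LCE genes are near copies of one another, and how the counting assigned their shared reads is not stated.

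Most mitotic genes were lower with the combination, whereas few were lower with either inhibitor alone. Of 30 G2/M genes, 20 departed downward and 0 upward (9.61% and 16.9% of all genes), with a median of -1.22. Of the 20, 11 exceeded the sum, 8 reversed a rise and 1 fell short. The median change of the 30 genes was 0.08 with SP2509, 0.06 with UNC0642 and -0.82 with both. Over all genes it was -0.17, 0 and -0.01. With both inhibitors, 26 of the 30 were at least 1.3-fold below vehicle, against 3 with SP2509 and 2 with UNC0642. In bulk RNA, fewer cells in mitosis and less of these RNAs per cell cannot be told apart. HMMR (ENSG00000072571, chromosome 5, 163460203 to 163491945), a spindle-associated protein, had 17.4 FPKM in vehicle, 16.4 in SP2509, 17.2 in UNC0642 and 1.63 in the combination, a departure of -2.72 (95% counting interval -2.93 to -2.5). CENPE, the kinetochore motor, had 10.2, 8.69, 8.87 and 0.408 FPKM in the vehicle, SP2509, UNC0642 and combination libraries, a departure of -2.6 (95% counting interval -2.75 to -2.45). Both were level in 3 libraries and more than 10-fold lower in the fourth. TOP2A, the topoisomerase of chromosome condensation, had 100.2 FPKM in vehicle, 136 in SP2509, 101 in UNC0642 and 19 in the combination, and CENPF, another kinetochore protein, had 32.1, 30.6, 28.2 and 5.89 FPKM in the vehicle, SP2509, UNC0642 and combination libraries, with departures of -2.79 and -2.02. DEPDC1 departed by -2.4. Of the windows of these 30 genes, 17 of 33 held CHR (51.5%, against 10.7% of all), and of those of all protein-coding genes that exceeded the sum downward, 48 of 219 did (21.9%).

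Some genes of the preceding phases departed the other way. Of 20 G1/S and E2F genes, 7 departed upward (35.0%, against 16.9% of all genes) and 1 downward, with a median of 0.78. Of 30 DNA replication genes, 8 departed upward (26.7%) and 0 downward, and their median of 0.25 was near the 0.19 of all genes. E2F1, a transcription factor of S-phase entry, had 7.86 FPKM in vehicle, 5.07 in SP2509, 11.03 in UNC0642 and 30.8 in the combination, a departure of 1.95 (95% counting interval 1.69 to 2.2). CDC25A, the phosphatase that activates CDK2, had 4.06, 1.24, 6.31 and 16.4 FPKM in the vehicle, SP2509, UNC0642 and combination libraries, a departure of 2.43. FEN1, the flap endonuclease, had 16.2 FPKM in vehicle, 5.19 in SP2509, 31.8 in UNC0642 and 62.1 in the combination, a departure of 2.42, and PCNA, the sliding clamp, had 60.2, 21.1, 108 and 144 FPKM in the vehicle, SP2509, UNC0642 and combination libraries, a departure of 1.88. In these 4 genes SP2509 gave the lowest level, UNC0642 a level above vehicle, and the combination the highest. CDC6 and RRM2 departed by 2.29 and 1.7, and E2F2 and CCNE1 by 1.88 and 1.57. Of 17 histone genes, 11 departed upward (64.7%, against 16.9% of all genes) and 1 downward (5.88%, against 9.61%). HIST1H4H, with 2.15 FPKM in vehicle, 0.779 in SP2509, 1.71 in UNC0642 and 13.4 in the combination, and HIST1H2BJ departed by 3.24 and 2.36, but histone genes are near copies of one another, and their shared reads could have been split by the counting.

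ID1 and ID3, inhibitors of differentiation induced by BMP signalling, exceeded the sum downward. ID1 had 344, 207, 364 and 29.7 FPKM in the vehicle, SP2509, UNC0642 and combination libraries, a departure of -2.84 (95% counting interval -2.97 to -2.72). ID3 had 204 FPKM in vehicle, 376 in SP2509, 91.8 in UNC0642 and 30.6 in the combination, a departure of -2.43 (95% counting interval -2.55 to -2.32), after a rise with SP2509 and a fall with UNC0642. The list they belong to was not uniform, with 4 of 15 members downward (26.7%) and 2 upward (13.3%), against 9.61% and 16.9% of all genes. Its median was 0.09, which was -0.03 with trimmed-mean scaling and -0.02 with centring. Keratins and desmosome genes had 7 of 23 downward (30.4%) and 1 upward (4.35%), with a median of -0.70. KRT17 had 324, 3716, 806 and 594 FPKM in the vehicle, SP2509, UNC0642 and combination libraries, a departure of -3.96 (95% counting interval -3.99 to -3.92), and KRT6A and PKP2 departed by -2.47 and -2.25. Among 23 squamous regulators, 6 departed upward (26.1%, against 16.9% of all genes) and 4 downward (17.4%, against 9.61%), with a median of 0.02. TP63, the master regulator of squamous cells, had 79.1 FPKM in vehicle, 127 in SP2509, 62.6 in UNC0642 and 18.3 in the combination, a departure of -2.39 (95% counting interval -2.47 to -2.32). JAG1, a Notch ligand, departed by -2.57. SOX2, with 18.3, 0.313, 4.94 and 0.636 FPKM in the vehicle, SP2509, UNC0642 and combination libraries, departed by 2.02, as it was near 0 with SP2509 already.

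The combination reversed a rise in 281 genes and a fall in 577. TCIM, an activator of Wnt signalling, had 13.3 FPKM in vehicle, 38.4 in SP2509, 45.5 in UNC0642 and 1.63 in the combination, a departure of -5.61 (95% counting interval -5.91 to -5.31). It was thus above vehicle with each inhibitor and below it with both. CYP24A1, which degrades vitamin D, had 3.99, 59.1, 4.32 and 1.69 FPKM in the vehicle, SP2509, UNC0642 and combination libraries, a departure of -4.58 (95% counting interval -4.84 to -4.32), and GBP1, an interferon-induced GTPase, had 6.18 FPKM in vehicle, 58.5 in SP2509, 9.31 in UNC0642 and 3.24 in the combination, a departure of -4.33 (95% counting interval -4.53 to -4.14). In both, SP2509 gave the highest level and the combination left the gene below vehicle. DST, a cytoskeletal linker, and RIMKLB, an amino acid ligase, departed by -3.78 and -3.74.

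After CHAC1, the largest reversals of a fall among protein-coding genes that reached 5 FPKM were those of ZNF165, HEXIM1, ARHGEF2 and OSGIN1. HEXIM1, an inhibitor of the elongation factor P-TEFb, had 36.2, 4.73, 24.1 and 56.4 FPKM in the vehicle, SP2509, UNC0642 and combination libraries, a departure of 3.89 (95% counting interval 3.72 to 4.06). ZNF165, a zinc finger protein, and ARHGEF2 departed by 3.998 and 3.47. OSGIN1, an NRF2 target, had 7.42 FPKM in vehicle, 2.87 in SP2509, 4.36 in UNC0642 and 23.99 in the combination, a departure of 3.34 (95% counting interval 3.09 to 3.6). Of 21 NRF2 targets, which protect against oxidants, 10 departed upward and 0 downward (16.9% and 9.61% of all genes), with a median of 0.85. Most of them stayed below vehicle with both inhibitors, where 13 of the 21 were at least 1.3-fold lower and 5 higher. Their median change was -1.29 with SP2509, -0.16 with UNC0642 and -0.76 with both. HMOX1, heme oxygenase, had 4.09, 1.07, 10.1 and 29.2 FPKM in the vehicle, SP2509, UNC0642 and combination libraries, a departure of 2.74. GCLM, of glutathione synthesis, had 22.2 FPKM in vehicle, 4.09 in SP2509, 31.96 in UNC0642 and 33.3 in the combination, a departure of 2.24, whereas its partner GCLC stayed below vehicle in the 3 treated libraries, with 77.9, 10.1, 20.9 and 17.3 FPKM in the vehicle, SP2509, UNC0642 and combination libraries, a departure of 2.57.

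Among genes of cell death, 5 of 15 BCL2 family members departed upward and 0 downward (16.9% and 9.61% of all genes), with a median of 0.73. With trimmed-mean scaling, 4 departed upward, with a median of 0.57. BMF and BCL2L11 (BIM), which trigger apoptosis, had 1.35 FPKM in vehicle, 1.54 in SP2509, 1.38 in UNC0642 and 7.73 in the combination and 6.14, 3.73, 6.11 and 14.01 FPKM in the vehicle, SP2509, UNC0642 and combination libraries, respectively. Their departures were 1.77 (95% counting interval 1.5 to 2.03) and 1.67 (95% counting interval 1.49 to 1.85), and both were highest with the combination. BID departed by 1.17, and HRK, with 2.41 FPKM in vehicle, 0.295 in SP2509, 0.856 in UNC0642 and 2.56 in the combination, by 2.34. The sum for HRK pointed below 0 FPKM. Of 21 death receptor and caspase genes, 5 departed upward (23.8%) and 2 downward (9.52%), near the shares of all genes (16.9% and 9.61%). FADD, the adaptor of death receptors, had 17.3, 3.94, 19.1 and 28.3 FPKM in the vehicle, SP2509, UNC0642 and combination libraries, a departure of 2.44 (95% counting interval 2.16 to 2.71), and RIPK1 departed by 1.67. BIRC3, an inhibitor of apoptosis, and TNFRSF1A, the TNF receptor, departed by -1.98 and -1.42. Of 20 p53 targets, 4 departed upward (20%) and 2 downward (10%), also near those shares. SESN2 and TIGAR departed by 3.42 and 2.82, and GADD45A by -1.61.

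Neither target of the inhibitors departed by 2-fold. KDM1A had 40.7 FPKM in vehicle, 36.2 in SP2509, 40.3 in UNC0642 and 32 in the combination, a departure of -0.16 (95% counting interval -0.25 to -0.07). EHMT2 had 11.1, 10.2, 10.3 and 5.38 FPKM in the vehicle, SP2509, UNC0642 and combination libraries, a departure of -0.70 (95% counting interval -0.86 to -0.55), with the combination alone standing apart. Of 24 genes for LSD1, G9a and their partners, 2 departed upward and 2 downward (8.33% each, against 16.9% and 9.61% of all genes). SNAI1 and SNAI2, EMT factors that recruit LSD1, did so in opposite directions, at 1.77 and -1.66. Of the genes that the study discusses by name, TNF had 0.80 FPKM in vehicle, 2.98 in SP2509, 2.301 in UNC0642 and 3.57 in the combination, a departure of -0.68 (95% counting interval -1.16 to -0.20), and HSPA8 departed by 0.62. HSPA1L and IDO1 departed by 0.94 and -0.56, but with 0 reads in SP2509 and 1 read in UNC0642, respectively, these became 2.90 and 0.03 with a pseudocount of 0.1, and 5.87 and 1.58 with 0.01. ADORA1, ASCL2 and SFRP2 stayed below 1 FPKM in all 4 libraries and were not measured here.

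The effect of each inhibitor was then compared without and with the other one, using pairs of libraries that share none. UNC0642 alone raised 634 genes at least 2-fold (4.28%) and lowered 413 (2.79%), whereas UNC0642 added to SP2509 raised 2469 (16.7%) and lowered 1236 (8.35%). Of the 634 raised by UNC0642 alone, 234 were also raised in the presence of SP2509 (36.9% of the former and 9.48% of the latter) and 74 were lowered. Of the 413 lowered, 77 were also lowered (18.6% and 6.23%) and 80 were raised. SP2509 alone raised 1101 genes (7.44%) and lowered 1736 (11.7%), and SP2509 added to UNC0642 raised 1091 (7.37%) and lowered 736 (4.97%). Here 176 were raised both times (16.0% and 16.1%) and 165 lowered both times (9.50% and 22.4%).

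Across genes, Pearson's r between the change without and with the other inhibitor was 0.17 for UNC0642 and 0.18 for SP2509 (14801 genes), and 0.08 and 0.17 in 5205 genes with at least 5 FPKM in all 4 libraries. Genes are not independent replicates, so these describe the 4 libraries. The genes raised by UNC0642 alone had a median change of 1.31 without and 0.52 with SP2509, and those lowered by SP2509 alone had -1.29 without and -0.15 with UNC0642. These genes were chosen on the former value, and a chosen value tends to be extreme by counting error.

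**Figure D4:**
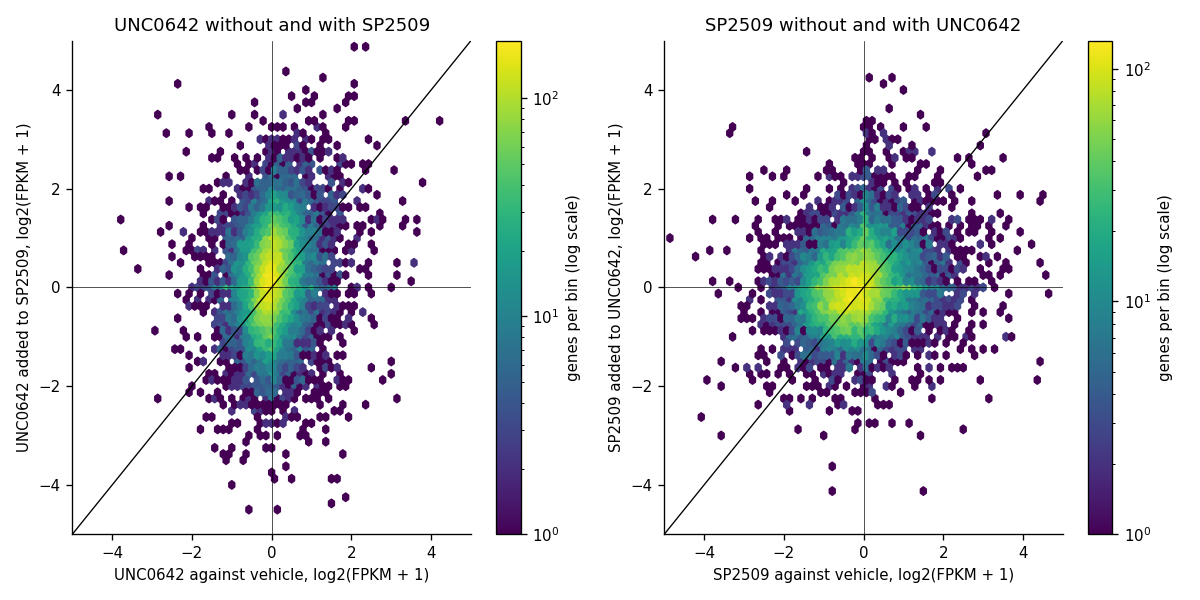
Hexagons count genes by the log2(FPKM + 1) change of an inhibitor against vehicle (x axis) and of the same inhibitor added to the other one (y axis), with equality as the diagonal; 1 gene (UNC0642) and 3 genes (SP2509) lie beyond the axes. The UNC0642 cloud is taller than wide, with 4.28% of genes at least 2-fold up without and 16.7% with SP2509. Part of this difference is fixed by the filter on FPKM.

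Departures also differed by the size of the gene on the genome. Protein-coding genes that departed upward had a median span of 18.4 kb, those that departed downward 47.0 kb, and those within 2-fold 34.7 kb. From the shortest to the longest quintile of genes, the share departing upward went from 23.8% to 5.49%, and the median departure from 0.39 to -0.17. The share departing downward was 6.73% in the shortest and 10.9% in the longest quintile. In the combination library the median change went from 0.21 in the shortest to -0.23 in the longest quintile, whereas it went from -0.21 to -0.07 with SP2509 and from 0.03 to 0.003 with UNC0642. The longest genes were also lower, with a median level over the 4 libraries of 5.001 FPKM against 7.09 in the shortest quintile, and the part of expression in this difference was not tested. Protein-coding genes made up 76.2% of all genes measured, but 48.5% of those that fell short of a rise and 66.6% of those that exceeded upward.

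**Figure D5:**
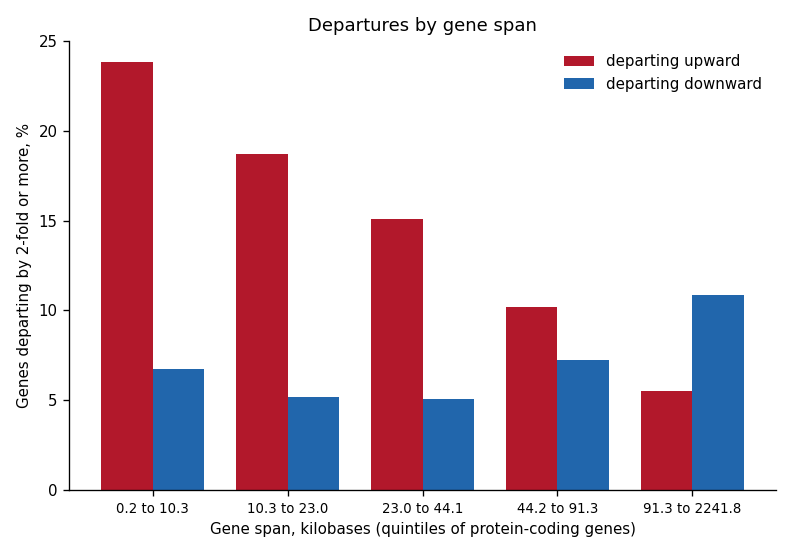
Bars give the percentage of protein-coding genes that departed by 2-fold or more, upward in red and downward in blue, in quintiles of genes by span in kilobases (2256 or 2257 genes each). The upward share goes down from 23.8% to 5.49% with span, and the downward share is 10.9% in the longest quintile.

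The knockdown libraries gave a readout from other cells, each line compared with its own uninduced library. No line with a non-targeting shRNA was given doxycycline, so the part of doxycycline itself in these changes was not tested. KDM1A, the target of shLSD1, stood at 25.98 FPKM uninduced and 6.29 FPKM after induction. EHMT2, the target of shG9a, was lowered less, with 7.85 FPKM uninduced and 4.76 FPKM after induction. Over 12567 genes measured in both tables, the median change with doxycycline was 0.12 in the shLSD1 line and 0.16 in the shG9a line. Genes that fell short of a rise had medians of -0.45 and -0.62 in these lines, while their medians with SP2509 and UNC0642 were 1.31 and 0.74. Genes that fell short of a fall had 0.32 and 0.25, while their medians with the inhibitors were -1.25 and -0.44. Genes that exceeded upward had 0.31 and 0.32, and those that exceeded downward -0.02 and 0.17. Lists did not all follow the classes. UPR sensors and ER chaperones were lower in both lines (medians -0.68 and -1.62), as with both single inhibitors, whereas G2/M genes were higher (0.59 and 0.64) and hypoxia and glycolysis genes were lower in all 22 cases in each line (-1.95 and -2.16).

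These values compare single libraries, so the culture and the treatment cannot be told apart for any departure. The pseudocount and the reference for additivity change the size of single departures, most of all where a library is near 0.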

How the data were processed

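RNA-seq of Kyse510 cells was used in the form of 2 deposited tables, with 1 library per condition. The authors filtered 150-base paired-end reads, mapped them to the human genome (GRCh38), and deposited FPKM values, which are fragments per kilobase of gene scaled to the library's total fragments. The aligner, the counting tool and the use of strand are not given in the sources used here. Reads per gene were estimated from the steps of the FPKM values (31578 of 31582 genes, 99.7% of the library totals), without which no counting interval could be had.

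A gene was kept where 1 or more of the 4 inhibitor libraries reached 1 FPKM, and changes were computed on log2(FPKM + 1), a scale that understates the change of low genes. A departure needed at least 2-fold. Intervals of 95% add 0.5 reads to each count and take the log of the counts as normal. The procedure was tested on simulated data. Python 3.11.15, numpy 2.4.6, pandas 2.3.3 and matplotlib 3.10.9 were used. A dated spelling in place of a symbol was replaced by the name of the gene ID for 25 genes. The 28 gene lists, the named genes and the promoter motifs were chosen with earlier results of these data known, so none is independent support. Named genes were the 5 protein-coding genes with the largest departure in each of 6 kinds (at least 5 FPKM in any library, interval without 0), KDM1A, EHMT2, genes the study discusses, and up to 4 members per list by size of departure. Promoters came from RefSeq (GRCh38.p14) and were matched by symbol. For genes that exceeded upward, fell short of a rise or reversed a rise, under 80% had a match (77.5% to 79.2%), and the motif check is void there. The knockdown table was normalized separately by the authors, so its levels were not set beside the inhibitor levels. Alternatives were pseudocounts of 0.1 and 0.01, other filters on FPKM, trimmed-mean (TMM) scaling, centring, other thresholds, protein-coding genes only, a sum on the linear scale, and the larger single change as the reference.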

Additional observations from a re-analysis of the deposited data

How the results depend on the processing

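No paired analysis was possible because each condition has 1 library, and for the same reason no library could be left out. Counts of departing genes were within 1.5 times the reported ones with TMM scaling, centring, no filter on low values and with the counting interval required not to hold 0. The value for the UNC0642 change without and with SP2509, a share of 36.9% as reported, was between 34.1% and 54.1% over its 5 alternatives. Where values moved further, the construction of the alternative shows the cause for filters and thresholds (fewer or more genes pass), and for the rest the cause was not tested.

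With pseudocounts of 0.1 and 0.01, 3778 and 3896 genes departed upward and 2133 and 2274 downward, of which 1322 and 1333 exceeded, 3139 and 3299 fell short and 1450 and 1538 reversed. With at least 5 FPKM in any library, 1380 departed upward and 825 downward (470 exceeded, 1159 fell short). With at least 1 FPKM in all 4 libraries, 1300 departed upward and 779 downward (379 exceeded, 1146 fell short, 554 reversed). At 1.3-fold, 6051 departed upward and 3653 downward (3266 exceeded, 5472 fell short), and at 4-fold 383 and 300 (89 exceeded, 389 fell short, 205 reversed). In protein-coding genes, 1654 departed upward and 791 downward, and 1235 fell short. With the larger single change as the reference, 1268 fell short. The median departure of 0.19 was 0.23 with either smaller pseudocount, 0.071 without a filter, 0.157 and 0.126 with the stricter filters, 0.0703 with TMM, 0.0848 with centring, 0.171 in protein-coding genes, 0.209 on the linear scale and 0.145 with the larger single change.

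Of the 141 genes named by the rule, 6 changed sign with another pseudocount or reference. SPRR2A had -1.35 with a pseudocount of 0.01, and IDO1 went from -0.56 to 0.03 and 1.58 with 0.1 and 0.01. With the larger single change as the reference, FOSL1, CA9, TNF and ATF6 had 0.17, 0.35, 0.20 and -0.32. List medians changed sign as follows. Those of the cholesterol, squamous regulator, and LSD1 and G9a partner genes did so with TMM, centring and the larger single change, and that of the ID and BMP genes with TMM and centring. Those of the immediate early and the hypoxia genes became 0.05 and 0.03 with the larger single change. With at least 5 FPKM in any library and at least 1 FPKM in all 4, those of the p53 targets became -0.23 and -0.14, of the metallothioneins 0.70 and 0.16, and of the LSD1 and G9a partners -0.05 and -0.008. That of the epidermal differentiation complex became -0.82 with the latter, where 2 genes remain. Genes with few reads are the limit of depth, and 1182 genes had an interval wider than 1 on either side.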

Other observations

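In 7 further gene lists, read in the same 4 libraries, 16.9% upward and 9.61% downward remain the shares over all genes. The genes of the mitochondrial genome had 7 of 15 members upward and 0 downward, with a median departure of 0.92. MT-CYB, a subunit of respiratory complex III, had 2931, 382, 2275 and 1665 FPKM in the vehicle, SP2509, UNC0642 and combination libraries, a departure of 2.49, and MT-CO3 and MT-ND3 departed by 1.95 and 1.78. SP2509 gave the lowest level of these 3 genes. The mitochondrial genome took 25.6%, 20.2%, 21.5% and 18.5% of the summed FPKM in the same order of libraries. Autophagy and lysosome genes had 6 of 22 upward and 0 downward, with a median of 0.44. MAP1LC3B, an LC3 protein of autophagosomes, had 15.7, 12.3, 12.1 and 51.2 FPKM in the vehicle, SP2509, UNC0642 and combination libraries, a departure of 2.32. GLA, a lysosomal galactosidase, departed by 1.65. Cytosolic heat shock chaperones had 4 of 20 upward and 1 downward, with a median of 0.65. DNAJA1, an HSP40 protein, had 37.3, 23.5, 77.1 and 159.7 FPKM in the vehicle, SP2509, UNC0642 and combination libraries, a departure of 1.69, and HSPB1, a small heat shock protein, departed the other way by -1.87.

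None of 30 cytosolic ribosomal protein genes departed, and their departures lay between -0.58 and 0.52, with a median of 0.27. Interferon-stimulated genes had 3 of 23 upward and 2 downward, with a median of 0.13. ISG20, an antiviral exonuclease, had 0.269, 0.992, 0.926 and 9.74 FPKM in the vehicle, SP2509, UNC0642 and combination libraries, a departure of 1.83. It was 1 of 4 members that reached 1 FPKM in the combination library alone, and such a gene had to be high there. With at least 1 FPKM in all 4 libraries, 1 of 15 interferon-stimulated genes departed upward and 2 downward. Cholesterol genes had 3 of 24 upward and 1 downward, with a median of 0.04 that was -0.10 with TMM scaling and -0.07 with centring. Of 5 metallothionein and zinc genes, 1 departed upward and 2 downward, with a median of -0.37 that was 0.70 with at least 5 FPKM in any library (3 genes) and 0.16 with at least 1 FPKM in all 4 (4 genes). MT2A, a metal-binding protein, had 124, 258, 386 and 239 FPKM in the vehicle, SP2509, UNC0642 and combination libraries, a departure of -1.75, and SLC30A1, a zinc exporter, departed by 1.19.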
